A study of Mus musculus with 6 samples.

Results

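The genes examined here are those of the major histocompatibility complex (MHC), the interferon response and the STAT transcription factors in mouse muscle stem cells (MuSCs). They were taken from the gene table by symbol, as all genes starting with H2-, Irf, Stat, Oas, Ifnar or Ifngr, the Ifit, Gbp and Ifi genes with a number, and Tap1, Tap2, Tapbp, B2m, Psmb8, Psmb9, Isg15 and Isg20, without the Irf2bp genes. The rule gave 65 of the 18943 genes in the table, of which 57 are protein coding and 21 lie on chromosome 17, the site of the MHC. MuSCs purified by FACS were cultured for 5 days with the solvent DMSO, with endothelin-3 (ET-3) or with neurotensin (NT), and their RNA was sequenced as 2 libraries for each of the 3 groups. Both ligands are peptides that act on G protein-coupled receptors. All groups were WT C57BL/6 cells labelled as 8 weeks old, and the labels give 100 nM for each ligand, whereas the study's methods give other and unequal doses.

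Interferons signal through paired receptor chains, Ifnar1 with Ifnar2 for type I and Ifngr1 with Ifngr2 for type II interferon, to kinases that phosphorylate STAT proteins. A complex of STAT proteins with IRF9 binds interferon-stimulated response elements (ISREs), and STAT dimers bind gamma-activated sites (GASs), which turns on antiviral genes, guanylate-binding proteins and the antigen presentation machinery. STAT3, STAT5 and STAT6 carry signals of other cytokines, and STAT3 is known in muscle for its part in the response of stem cells to interleukin-6 family cytokines.

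Values are read signals, that is reads per gene multiplied by 1 factor per library and rounded. They summed to between 4214458 and 4600575 per library, and the factors of 0.781 to 1.19 imply 3628952 to 5396233 reads on genes, so that a value of 100 carries a counting error of 8.84% to 10.9%. Both ET-3 libraries and both NT libraries differed no more than sampling of reads would give, the chi-square averaging 0.897 and 0.962 per gene against 1.44 between the DMSO libraries. The study speaks of biological samples, but neither it nor the labels say whether the 2 libraries of a group came from separate cultures, so the p-values measure the spread between these libraries, which may be technical. All 10 muscle markers examined were in the table, with sums of 7976 to 11800 per library. Of the macrophage markers 5 of 10 were in the table, with sums of 45 to 48 in DMSO and 62 to 94 with either ligand, and of 41 to 43 and 34 to 62 without Cd14. The dendritic cell and lymphocyte lists each had 1 gene in the table, with sums of 23 to 33 and 0 to 2. The endothelial list had 5 of 7 genes, with sums of 62 to 64 in DMSO and 98 to 128 with a ligand, or 60 to 63 and 50 to 63 without Tek, which had 2 and 1 in DMSO and 42 to 70 with a ligand. With ET-3, 2 of the 4 tested endothelial genes were called higher and 1 lower, and with NT 3 higher and 1 lower. Tek and Kdr were called higher with both ligands, Kdr by 1.22 with each (SE 0.39). Pecam1 was called higher with NT alone (1.26, SE 0.43). Vwf was called lower with both ligands (-1.18 and -1.37, SE 0.35). The fibroadipogenic list had 3 of 6, with sums of 56 to 65 in DMSO and 63 to 89 with a ligand. In these bulk samples fewer cells of a type and less RNA per cell cannot be told apart.

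The start regions of several genes hold the letters of these response elements. The RefSeq table for GRCm38.p6 held windows of 300 bases, from 250 bases before to 50 after the start, for 48 of the 65 genes, in 60 windows. The ISRE core, GAAA, any 2 bases and GAAA, searched on both strands, lay in 14 of the 60 windows (23.3%), against 3.44% of all 32851 windows, and the GAS core TTCNNNGAA, which reads the same on both strands, lay in 11 (18.3%) against 8.30%. The windows below are shown because their genes are called lower (Gbp2, Ifi211 and Stat2) or higher (Psmb8 and Ifit2) with at least 1 ligand and hold a match, with H2-D1 as a called gene without one. The windows of the called genes H2-Q4, H2-Eb1, Oasl1, Irf7 and Stat5a held no match either. RefSeq windows were lacking for the called genes Gbp4, Gbp8, Gbp9, Gbp10, Gbp11 and Ifi204. Only exact cores were searched, so variant forms of an element would be missed. Capitals mark the match, and each sequence is given 5′ to 3′ on the strand of the gene.
Gbp2, chr3:142620413-142620712, plus strand: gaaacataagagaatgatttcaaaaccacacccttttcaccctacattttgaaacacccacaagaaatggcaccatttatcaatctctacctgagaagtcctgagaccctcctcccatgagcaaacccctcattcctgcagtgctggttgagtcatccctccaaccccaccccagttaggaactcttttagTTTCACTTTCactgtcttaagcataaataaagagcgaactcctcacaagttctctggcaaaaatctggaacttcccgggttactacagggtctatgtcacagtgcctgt
Ifi211, chr1:173912997-173913296, minus strand: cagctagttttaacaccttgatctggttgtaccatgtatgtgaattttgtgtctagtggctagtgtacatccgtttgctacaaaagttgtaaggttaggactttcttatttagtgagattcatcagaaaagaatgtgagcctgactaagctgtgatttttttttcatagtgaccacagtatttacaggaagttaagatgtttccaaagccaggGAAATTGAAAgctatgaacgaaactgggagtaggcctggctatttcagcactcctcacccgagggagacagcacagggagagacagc
Stat2, chr10:128270248-128270547, plus strand: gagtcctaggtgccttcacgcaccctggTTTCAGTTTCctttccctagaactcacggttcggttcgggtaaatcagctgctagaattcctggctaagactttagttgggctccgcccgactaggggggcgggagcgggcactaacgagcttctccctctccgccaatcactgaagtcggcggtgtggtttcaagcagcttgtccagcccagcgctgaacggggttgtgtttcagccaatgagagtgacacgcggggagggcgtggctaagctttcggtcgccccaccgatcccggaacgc
Psmb8, chr17:34197945-34198244, plus strand: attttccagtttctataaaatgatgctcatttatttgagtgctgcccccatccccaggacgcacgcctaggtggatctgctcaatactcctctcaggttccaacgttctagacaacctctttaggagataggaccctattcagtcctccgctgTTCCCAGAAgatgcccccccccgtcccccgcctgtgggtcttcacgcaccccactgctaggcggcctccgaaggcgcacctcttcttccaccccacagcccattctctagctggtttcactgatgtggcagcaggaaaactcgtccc
Ifit2, chr19:34550444-34550743, plus strand: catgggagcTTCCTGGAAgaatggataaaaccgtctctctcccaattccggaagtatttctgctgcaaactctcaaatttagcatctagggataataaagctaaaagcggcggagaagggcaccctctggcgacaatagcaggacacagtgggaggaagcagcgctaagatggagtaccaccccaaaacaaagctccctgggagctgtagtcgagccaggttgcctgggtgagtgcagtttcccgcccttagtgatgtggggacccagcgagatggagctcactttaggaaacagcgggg
H2-D1, chr17:35262844-35263143, plus strand: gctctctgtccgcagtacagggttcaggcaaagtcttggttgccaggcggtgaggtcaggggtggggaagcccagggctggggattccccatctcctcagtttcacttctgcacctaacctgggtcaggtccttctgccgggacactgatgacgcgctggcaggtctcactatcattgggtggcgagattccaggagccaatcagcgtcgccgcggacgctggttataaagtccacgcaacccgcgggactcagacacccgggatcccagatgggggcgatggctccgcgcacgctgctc

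The ISRE core matches begin 59 bases before the start in Gbp2, 37 in Ifi211 and 222 in Stat2, and the GAS core matches begin 97 bases before the start in Psmb8 and 241 in Ifit2. Ifit2 has a second annotated start whose window holds neither. Such a match describes the letters of the window and is no evidence of binding.

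**Figure D1:**
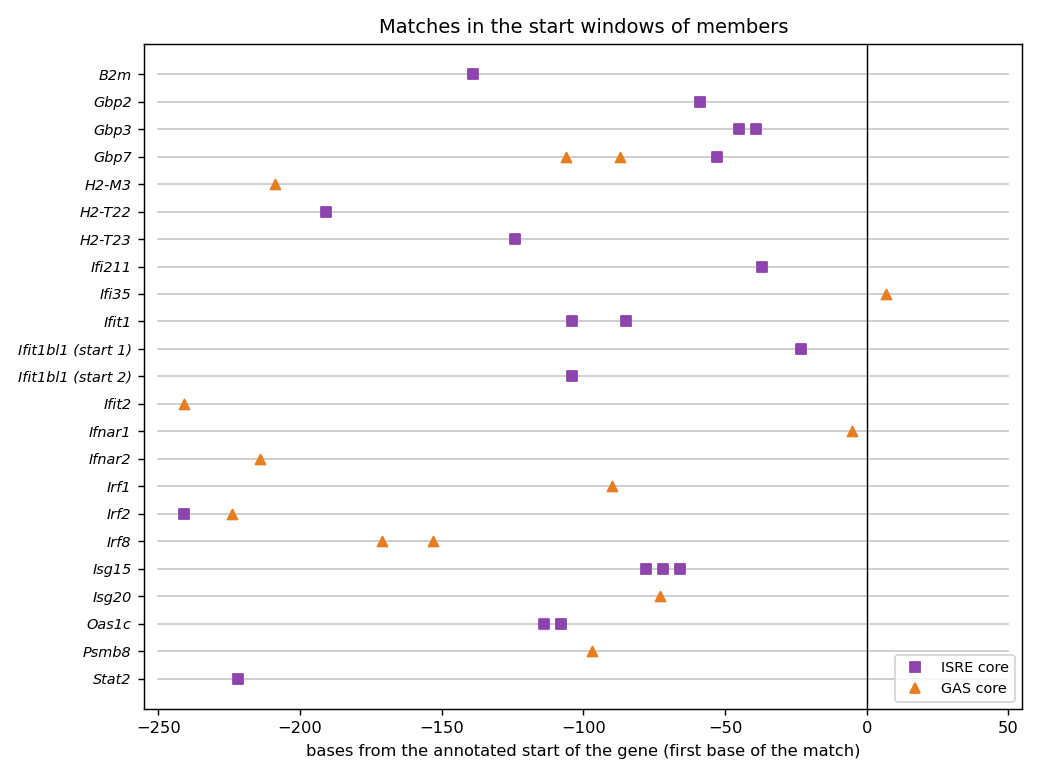
Position of ISRE core (squares) and GAS core (triangles) matches in the windows around annotated starts that hold at least 1, with the distance of the first base of the match from the start in bases on the horizontal axis and 1 line per window. The 23 windows belong to 22 genes, and Isg15 holds 3 overlapping ISRE core matches while Stat2 and Irf2 hold theirs far from the start.

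A gene was tested when its mean value over the 6 libraries was at least 5, which 45 of the 65 genes reached. A call needed a p of at most 0.05 in limma after Benjamini-Hochberg adjustment and a change of at least 2-fold, both on log2(value + 1), a scale that understates changes of low genes. The genes called lower with both ligands included 5 Gbp genes, the interferon-inducible genes Ifi204 and Ifi211, Stat2 and Stat5a. The class I genes H2-D1 and H2-Q4, Ifit2 and the weakly detected H2-Eb1, Psmb8 and Oasl1 were called higher with both. With ET-3, 6 of the 45 genes were called higher, where 6.62% of all 13921 tested genes were, and 12 were called lower, where 14.9% were. With NT, 6 were called higher against a background of 7.3%, and 10 lower against 13.2%. Counting both libraries of a ligand as 1 sample left 2 higher calls with either ligand, H2-D1 and Ifit2, and 8 and 7 lower calls. Without the second ET-3 library, 2 genes were called higher with ET-3, namely H2-D1 and Oasl1.

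By the adjusted p alone, 10 of the 45 genes were higher and 21 lower with ET-3, beside 30.6% and 33.2% of all tested genes. With NT 11 were higher and 18 lower, beside 29.7% and 32.5%. The median log2 fold change of the 45 genes was -0.36 after ET-3 and -0.21 after NT, and that of all tested genes was -0.01 in both comparisons. With both libraries of a ligand counted as 1 sample, 2 were higher and 11 lower with ET-3 and 2 and 9 after NT, when 3997 and 3457 of all tested genes passed. Both comparisons use the same DMSO libraries. The fit with averaged treated pairs is given below for some genes only. Others that passed the main test, among them H2-K1, Tapbp, Ifi30, Ifi27 and Ifngr1, did not pass in it with either ligand. Where treated and DMSO libraries are said below not to overlap, the genes had passed in these same libraries. Such a separation adds no support, and its share over all tested genes was not computed.

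**Figure D2:**
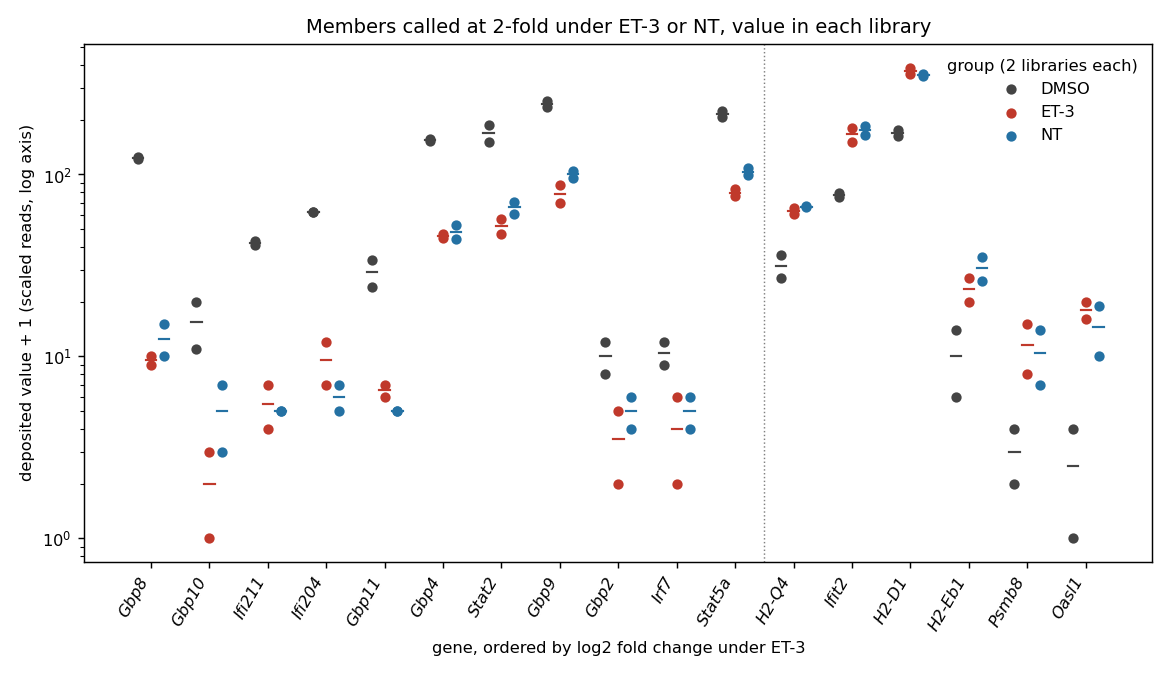
Deposited value plus 1 in each library, on a log axis, for 17 genes called with at least 1 ligand, ordered by the log2 fold change with ET-3; points are libraries, short bars are means of 2, and the dotted line separates the 11 genes called lower from the 6 called higher. In all 17 genes the libraries of each ligand lie on 1 side of both DMSO libraries, which adds no support, since the genes were chosen by a call in these same libraries.

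The Gbp family encodes interferon-inducible GTPases that attack pathogen-containing vacuoles. Of its 9 genes examined here, among them Gbp11, annotated as a polymorphic pseudogene, 6 were tested. All 6 were called lower with ET-3 and 5 after NT, where 14.9% and 13.2% of all tested genes were. The median log2 fold change over the 6 was -1.94 and -1.69. Gbp8 had the highest fold difference, with values of 121 and 123 under DMSO, 8 and 9 after ET-3 and 9 and 14 after NT. Every treated library was far below both DMSO libraries. The log2 fold change of Gbp8 was -3.70 after ET-3 (SE 0.28, adjusted p = 1.60e-06) and -3.33 after NT (SE 0.28, adjusted p = 3.61e-06). Gbp9 was the most abundant of the family, with 252 and 235 under DMSO, 69 and 86 after ET-3 and 103 and 95 after NT. Its log2 fold change was -1.65 (SE 0.13, adjusted p = 2.03e-06) and -1.29 (SE 0.13, adjusted p = 1.22e-05). Gbp4 had values of 151 and 156, then 44 and 46 after ET-3 and 43 and 52 after NT, with changes of -1.75 and -1.68 (SE 0.16, adjusted p = 5.67e-06 and 8.08e-06). The groups of treated and DMSO libraries did not overlap for Gbp8, Gbp9 or Gbp4. Per kilobase of exon the DMSO level was 47.1 for Gbp9, 35.4 for Gbp8 and 20.5 for Gbp4, and with ET-3 it was 15.0, 2.47 and 6.00.

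Gbp11 was lower as well, at 33 and 23 in DMSO against 6 and 5 after ET-3 and 4 and 4 after NT, with log2 fold changes of -2.14 and -2.51 (SE 0.36, adjusted p = 0.000442 and 0.000154). Gbp10, at 10 and 19, 2 and 0, and 6 and 2, passed with changes of -3.10 and -1.69 (SE 0.64, adjusted p = 0.00178 and 0.0412). Both lost their calls with either ligand once treated pairs were averaged, at adjusted p of 0.0564 and 0.0511 for Gbp11 and 0.0678 and 0.151 for Gbp10. The Gbp10 call also ended without the second DMSO library with ET-3, and without any 1 of the DMSO or NT libraries with NT. Gbp2, at 11 and 7, 4 and 1, and 3 and 5, passed with ET-3 at -1.63 (SE 0.53, adjusted p = 0.0213) and had -1.0 after NT (adjusted p = 0.128). Averaging the treated pairs gave Gbp2 an adjusted p of 0.102 after ET-3, and leaving out either DMSO library or the second ET-3 library also ended that call. Of the untested members Gbp6 was listed at 15 and 8 under DMSO, 2 and 2 after ET-3 and 1 and 1 after NT, while Gbp3 and Gbp7 lay between 0 and 5.

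The lower Gbp genes are mostly neighbours. Gbp8, Gbp9, Gbp4, Gbp10, Gbp6 and Gbp11 span 332 kb on the minus strand at chr5:105014150-105346472 in GRCm38, and no other gene of the table lies inside that span. The annotated exons of Gbp8, Gbp9 and Gbp4 overlap on the same strand, and reads on shared exons were left out by the authors' counting, so their values cover the unshared exons. Of all 75-base windows of the GENCODE M21 transcripts, 92.0%, 96.4% and 96.9% of those of Gbp8, Gbp9 and Gbp4 occurred in no other gene, while 22.2% of those of Gbp10 and 32.7% of those of Gbp6 did, the rest being shared mostly with the overlapping gene model Gm43302. The values of Gbp10 and Gbp6 are therefore uncertain. Gbp2, Gbp3 and Gbp7 lie on chromosome 3.

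The Ifi genes are a mixed group of interferon-inducible genes, and all 5 tested members passed the adjusted p with both ligands, 1 higher and 4 lower. The shares over all tested genes were 30.6% higher and 33.2% lower with ET-3, and 29.7% and 32.5% with NT. Ifi204, a nuclear protein of the p200 family that senses DNA, had 61 and 61 under DMSO, 6 and 11 after ET-3 and 6 and 4 after NT. Its log2 fold change was -2.76 (SE 0.36, adjusted p = 7.73e-05) with ET-3 and -3.39 (SE 0.36, adjusted p = 1.88e-05) with NT. Ifi211, of the same family, had 42 and 40, 6 and 3, and 4 and 4, with changes of -2.99 and -3.07 (SE 0.38, adjusted p = 6.34e-05 and 5.51e-05). In both genes every treated library was far below the DMSO libraries, which were almost equal. The genes lie near each other on chromosome 1, at chr1:173747293-173766943 and chr1:173896345-173913046. Of the windows of Ifi211 36.4% occurred in no other gene and 40.6% were shared with Ifi205, so its value rests on a part of the transcript, whereas 86.8% of those of Ifi204 were its own.

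Changes were smaller in the other Ifi genes. Ifi30, the lysosomal thiol reductase that prepares antigens for MHC class II, was higher, at 98 and 109 under DMSO, 164 and 132 after ET-3 and 148 and 139 after NT, with changes of 0.51 and 0.47 (SE 0.13, adjusted p = 0.00546 and 0.00852). Ifi35 was lower at 77 and 77, 41 and 38, and 47 and 42, with -0.95 and -0.78 (SE 0.17, adjusted p = 0.000840 and 0.00295). Ifi27 was lower at 89 and 105, 48 and 61, and 57 and 64, with -0.83 and -0.67 (SE 0.18, adjusted p = 0.00215 and 0.00745). The ligand libraries of these 3 genes did not overlap with DMSO. Ifi203-ps and Ifi47 were at 10 or below in every library and were not tested.

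Of the Ifit, Oas and Isg genes, Ifit2, Oasl1 and Isg20 had values above 10 in at least 1 library, and Ifit2 was by far the most abundant. Ifit2, which binds viral RNA and restricts its translation, rose from 78 and 74 under DMSO to 150 and 180 after ET-3 and 163 and 184 after NT. The log2 fold change was 1.10 (SE 0.12, adjusted p = 2.50e-05) with ET-3 and 1.18 (SE 0.12, adjusted p = 1.65e-05) with NT. Without the second ET-3 library the change with ET-3 fell just under 2-fold. Its neighbours Ifit1 and Ifit1bl1 were at 3 or below in every library. Oasl1, a relative of the oligoadenylate synthetases that limits translation of Irf7, was at 3 and 0 under DMSO, 19 and 15 after ET-3 and 9 and 18 after NT. Its changes of 3.16 and 2.78 (SE 0.62, adjusted p = 0.00126 and 0.00287) rest on a DMSO level near 0. Both calls ended when treated pairs were averaged (3.17 and 2.86), and the NT call also ended without the second NT library. Oasl2, at 3 to 9 in all libraries, did not pass. Isg15, the ubiquitin-like modifier, was at 6 and 5, 2 and 1, and 0 and 3, too low to be tested. Isg20, an exonuclease, was at 21 to 33 in all libraries and did not pass with ET-3 (0.02, SE 0.25, adjusted p = 0.959) or NT (0.31, SE 0.25, adjusted p = 0.306). Oas1b and Oas1c were at 2 or below.

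Of the 13 class I genes 7 were tested, and by the adjusted p 3 were higher with each ligand while 1 was lower with NT. Of all tested genes 30.6% were higher and 33.2% lower with ET-3, and 29.7% and 32.5% with NT. H2-D1, a classical class I heavy chain, had 175 and 162 under DMSO, 386 and 355 after ET-3 and 348 and 355 after NT. Every treated library was about as far above DMSO as the others, with changes of 1.13 (SE 0.07, adjusted p = 5.04e-07) and 1.06 (SE 0.07, adjusted p = 8.66e-07). H2-K1, the other classical heavy chain in the table, had 199 and 213, 261 and 256, and 246 and 257, a smaller rise of 0.33 and 0.29 (SE 0.07, adjusted p = 0.00266 and 0.00586). Per kilobase of exon H2-D1 went from 65.3 under DMSO to 144 after ET-3 and 136 after NT, and H2-K1 from 70.1 to 88.0 and 85.6. H2-Q4, a class Ib gene, had 35 and 26, 60 and 64, and 65 and 66, with 1.01 and 1.09 (SE 0.20, adjusted p = 0.00119 and 0.000772). Averaging the treated pairs raised the adjusted p of H2-Q4 to 0.106 and 0.0994, and the fold change fell under 2-fold without the second DMSO library and, with ET-3, without the second ET-3 library. B2m, the light chain shared by class I molecules, had the highest level per kilobase of all 65 genes in DMSO, 334. Its values were 285 and 289 under DMSO, 318 and 278 after ET-3 and 242 and 243 after NT, with changes of 0.05 (SE 0.08, adjusted p = 0.581) and -0.24 (SE 0.08, adjusted p = 0.0182).

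H2-T22, H2-M3 and H2-T23, which are non-classical class I genes, did not pass with either ligand, with changes between -0.38 and 0.64. The other 6 class I genes, some of them annotated as pseudogenes, were at 8 or below. Among class II genes, H2-Eb1 had 5 and 13 under DMSO, 26 and 19 after ET-3 and 34 and 25 after NT, with changes of 1.34 (SE 0.41, adjusted p = 0.0154) and 1.72 (SE 0.41, adjusted p = 0.00433). Averaging the treated pairs gave H2-Eb1 adjusted p of 0.267 and 0.200, and leaving out the first DMSO library, either ET-3 library or the first NT library ended a call. H2-DMa, which helps to load class II molecules, had 22 and 19, 13 and 16, and 10 and 10, with -0.48 (SE 0.30, adjusted p = 0.186) and -0.96 (SE 0.30, adjusted p = 0.0168). H2-Ab1, which pairs with another chain to form a class II molecule, was at 5 or below. H2-Ke6, a gene of the region that encodes a dehydrogenase rather than an antigen-presenting molecule, was at 3 or below. Of the macrophage markers looked up, 5 of 10 were in the table, namely Cd68, Csf1r, Itgam, Cd14 and Mrc1, and the others were not. Cd14 was the only one called, at 4 and 5 in DMSO and 24 to 34 with a ligand (2.63 and 2.39, SE 0.29). Values of the other 4 were in part higher and in part lower with a ligand. Itgam, which was not tested, was at 14 and 7 in DMSO and 0 with a ligand, and Csf1r at 6 and 13 and then 4 to 5. Cd68 was at 15 and 14 and then 16 to 41, and Mrc1 at 6 and 9 and then 11 to 17. Of these only Mrc1 passed, with ET-3 alone (0.92, SE 0.36, adjusted p = 0.0445 in limma). The sum of the 5 was 45 and 48 under DMSO and 62 to 94 with a ligand, and that of the 4 without Cd14 was 41 and 43 and then 34 to 62. Their part in the H2-Eb1 result was not tested.

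The genes for peptide supply and loading went in different directions. Tapbp, tapasin, which tethers class I molecules to the peptide transporter, fell from 161 and 179 under DMSO to 93 and 108 after ET-3 and 96 and 110 after NT, with changes of -0.75 and -0.72 (SE 0.13, adjusted p = 0.000446 and 0.000646). The transporter genes were not called. Tap2 had 208 and 251, 186 and 208, and 198 and 201, with -0.22 and -0.19 (SE 0.10, adjusted p = 0.0888 and 0.120), and Tap1 had 30 and 53, 32 and 33, and 38 and 50, with -0.29 and 0.12 (SE 0.28, adjusted p = 0.391 and 0.718). Psmb8, a subunit of the immunoproteasome, was at 3 and 1, 7 and 14, and 6 and 13, with 1.95 and 1.81 (SE 0.53, adjusted p = 0.00879 and 0.0135), and lost its call when treated pairs were averaged (adjusted p = 0.126 and 0.142), without the second DMSO library, and without the second library of the ligand itself. Psmb9, its partner subunit, was at 2 to 5 and untested.

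**Figure D3:**
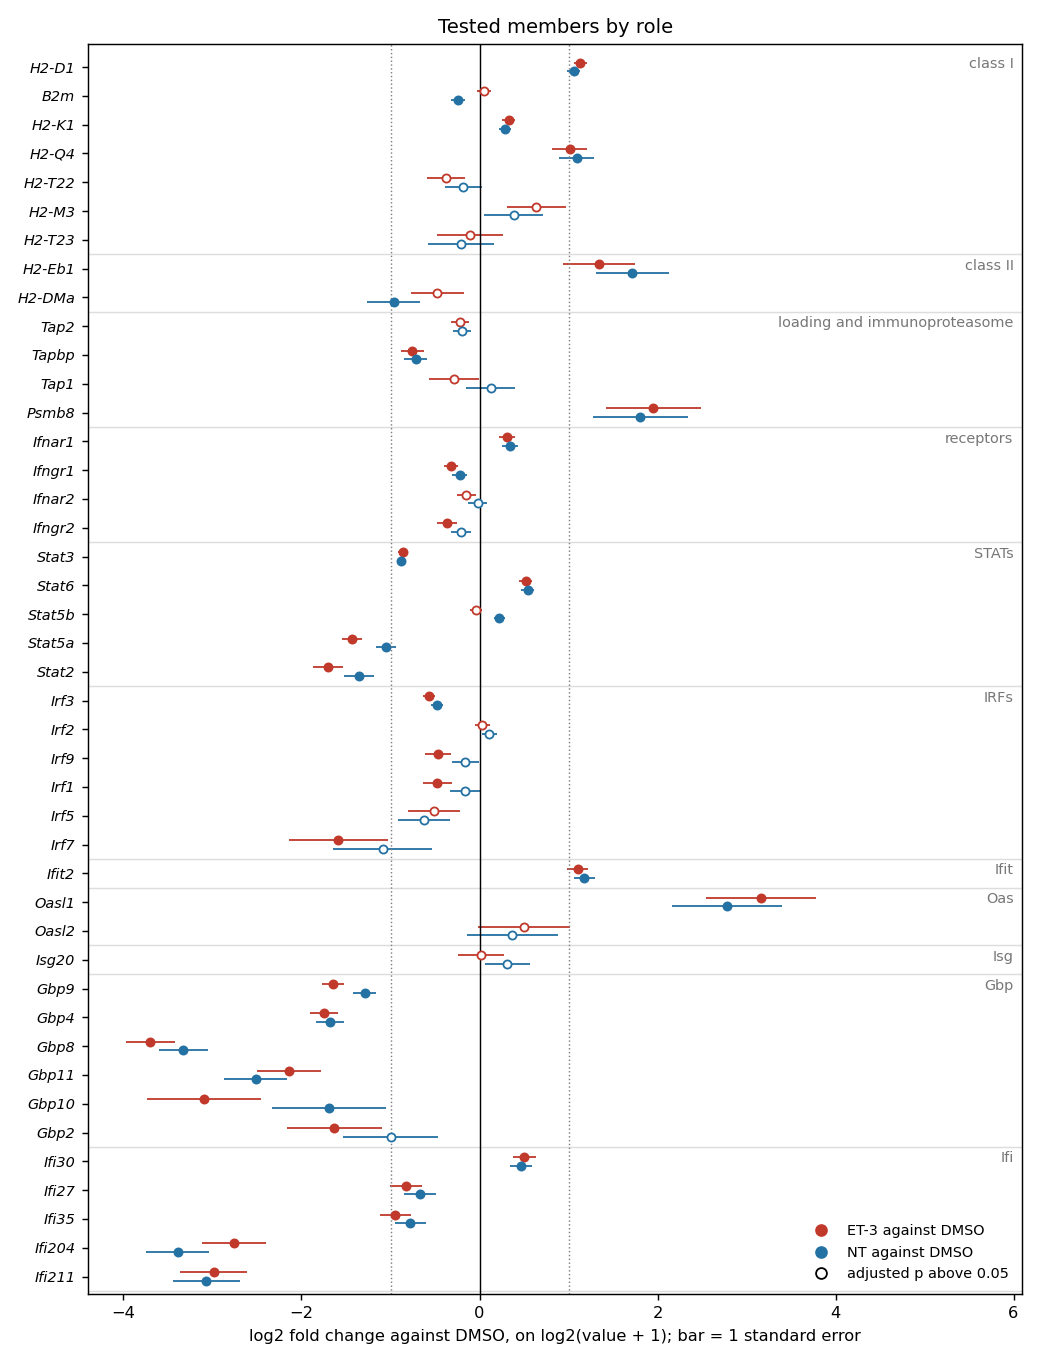
Log2 fold change against DMSO with 1 standard error for 43 tested genes, grouped by role and ordered by mean value, with ET-3 in red and NT in blue; filled points passed an adjusted p of 0.05 and dotted lines mark 2-fold. All 6 tested Gbp genes lie to the left of 0 with both ligands, whereas class I genes lie on both sides.

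The 4 receptor genes changed little, and none reached 2-fold. Ifnar1 had 409 and 339 under DMSO, 493 and 435 after ET-3 and 465 and 483 after NT, and was higher by 0.31 and 0.35 (SE 0.09, adjusted p = 0.0114 and 0.00697). When the treated pairs were averaged its adjusted p was 0.255 and 0.229. Ifnar2 lay between 122 and 150 in all libraries and did not pass. Ifngr1 had 201 and 201, 161 and 160, and 176 and 168, and was lower by a log2 fold change of -0.32 and -0.22 (SE 0.08, adjusted p = 0.00560 and 0.0345). Ifngr2 had 149 and 133, 105 and 114, and 117 and 127, with -0.36 (SE 0.11, adjusted p = 0.0176) and -0.21 (SE 0.11, adjusted p = 0.138). In DMSO the level per kilobase was 70.6 for Ifngr1, 63.0 for Ifnar1, 43.7 for Ifnar2 and 37.4 for Ifngr2. The difference between Ifngr1 and Ifnar1 was smaller than that between the DMSO libraries of Ifnar1, whereas with a ligand Ifnar1 was the highest.

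The STAT genes described here, 5 in number, were all tested, and their order by level changed with the ligands. Stat3 was the highest in DMSO, with 1380 and 1401, against 745 and 782 after ET-3 and 782 and 729 after NT. Its log2 fold change of -0.86 and -0.88 (SE 0.05, adjusted p = 2.63e-07 and 2.51e-07) stayed under 2-fold and left 54.9% and 54.3% of the DMSO level. Stat2, the type I interferon STAT, had 149 and 187, 56 and 46, and 60 and 70, with -1.70 and -1.35 (SE 0.17, adjusted p = 1.22e-05 and 6.52e-05). With averaged treated pairs its adjusted p was 0.0446 and 0.0589. Stat5a had 207 and 221, 75 and 82, and 107 and 98, with -1.44 and -1.06 (SE 0.11, adjusted p = 2.08e-06 and 1.98e-05). Without the second NT library its change with NT fell under 2-fold. Its close paralog Stat5b had 302 and 278, 280 and 284, and 345 and 332, with -0.04 (SE 0.07, adjusted p = 0.628) and 0.22 (SE 0.07, adjusted p = 0.0137). Of the windows of Stat5a 94.9% and of Stat5b 93.0% occurred in no other gene, so that the paralogs could be told apart in most of their length.

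Stat6, which carries interleukin-4 signals, was the only one of them higher with both ligands, at 335 and 292 under DMSO, 466 and 431 after ET-3 and 457 and 454 after NT, with 0.52 and 0.54 (SE 0.07, adjusted p = 0.000147 and 0.000112). With averaged treated pairs its changes were again 0.52 and 0.54 but did not pass. Per kilobase of exon Stat3 stood at 146 under DMSO, 80.1 after ET-3 and 79.3 after NT, and Stat6 at 71.2, 102 and 103, so that Stat6 stood above Stat3 in both treated groups. Stat5a and Stat2, the latter at 28.3 in DMSO, overlapped between DMSO libraries on this scale. Stat5a, Stat5b and Stat3 lie side by side at chr11:100780731-100939540, and the exons of Stat3 and Stat5a overlap on opposite strands. The labels and the study's methods name different library kits, and if strand was not used in counting, reads from that overlap cannot be told apart.

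**Figure D4:**
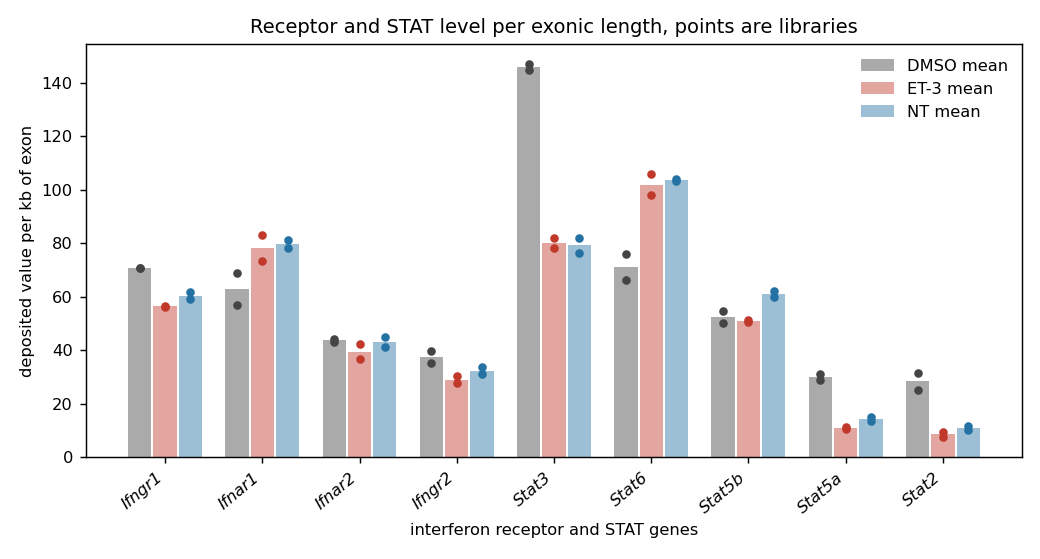
Deposited value per kilobase of annotated exon for the 4 interferon receptor genes and 5 STAT genes, with bars for the mean of 2 libraries and points for the libraries, in DMSO (grey), ET-3 (red) and NT (blue). Stat3 is the tallest in DMSO at 146, and Stat6 is the tallest with either ligand at 102 and 103.

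The IRF genes encode transcription factors that act around interferon induction and response. Of the 6 tested ones described here 4 were lower with ET-3 and 1 after NT, with none higher, by the adjusted p in limma. Of all tested genes 33.2% were lower and 30.6% higher with ET-3, and 32.5% and 29.7% after NT. Irf3, which turns on interferon genes after viral sensing, was the most abundant of them, at 411 and 414 under DMSO, 295 and 264 after ET-3 and 294 and 299 after NT, with -0.56 and -0.48 (SE 0.07, adjusted p = 4.71e-05 and 0.000161). Irf7, the amplifier of type I interferon production, had 8 and 11, 1 and 5, and 5 and 3, with -1.58 (SE 0.56, adjusted p = 0.0295) and -1.08 (SE 0.56, adjusted p = 0.115). The Irf7 call with ET-3 was lost when treated pairs were averaged (adjusted p = 0.0812) and when any library but the second ET-3 library was left out.

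Irf9, the DNA-binding partner of STAT2, had 96 and 97, 77 and 63, and 82 and 91, with -0.46 (SE 0.15, adjusted p = 0.0186) and -0.16 (SE 0.15, adjusted p = 0.375). Irf1 had 81 and 97, 57 and 71, and 74 and 84, with -0.47 (SE 0.17, adjusted p = 0.0314) and -0.17 (SE 0.17, adjusted p = 0.411). Irf2, at 163 to 183, and Irf5, at 12 to 20, did not pass with either ligand. Irf8, a factor of myeloid cells and lymphocytes, was at 6 or below and untested.

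No tested member differed between the ligands by the adjusted p in limma, where 2.69% of all tested genes did. An unadjusted p under 0.05 was reached by 4 of the 45, beside 2765 of all 13921 tested genes. Voom on the reads recovered from the factors passed 2 of the 45, beside 898 of the 13921. Stat5b was higher with NT than with ET-3 by 0.26 (SE 0.07, adjusted p = 0.0676; 0.0339 with voom), and B2m was lower by a log2 fold change of -0.29 (SE 0.08, adjusted p = 0.0718; 0.0299 with voom). Stat5a (0.38, SE 0.11, adjusted p = 0.103) and Gbp9 (0.36, SE 0.13, adjusted p = 0.160) were the other genes at an unadjusted p under 0.05. The log2 differences included 1.40 for Gbp10 and -0.63 for Ifi204, and the median over the 45 genes was 0.08 beside 0.03 for all tested genes. The standard errors of 0.05 for Stat3 to 0.64 for Gbp10 bound how small a difference could be seen.

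Further genes of the same pathways were examined in 4 lists, of which 73 of 102 genes were tested. With ET-3, 6 were called higher and 11 lower, where 6.62% and 14.9% of all tested genes were, and with NT 6 and 10, where 7.3% and 13.2% were. These counts lie near the shares over all tested genes (8.22% and 15.1% of the 73 with ET-3, 8.22% and 13.7% with NT). The median log2 fold change was -0.06 and -0.17. Scaling the libraries to their totals gave 8 higher and 9 lower with ET-3, and 10 and 9 after NT. By the adjusted p alone 16 were higher and 24 lower with ET-3, and 18 and 30 after NT, or 21.9% and 32.9%, and 24.7% and 41.1%, beside 30.6% and 33.2%, and 29.7% and 32.5%, of all tested genes.

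Among 21 tested genes of interferon and cytokine signalling, 2 were higher and 13 lower with ET-3 by the adjusted p alone, and 1 and 13 after NT. Of all tested genes 30.6% and 33.2% were higher and lower with ET-3, and 29.7% and 32.5% after NT. The medians of the 21 were -0.44 and -0.24, beside -0.01 for all tested genes in both comparisons. The naming rule takes the called genes with the largest changes, here 3 inhibitors of such signals, all of them lower. Socs3, the feedback inhibitor induced by STAT3, had 507 and 487 under DMSO, 137 and 146 after ET-3 and 151 and 137 after NT, with -1.81 and -1.78 (SE 0.08). Cish, a feedback inhibitor induced by STAT5, had 25 and 33, 1 and 2, and 2 and 2, with -3.60 and -3.31 (SE 0.42). Ptpn6, a phosphatase that dampens cytokine receptors, had 42 and 45, 13 and 9, and 11 and 17, with -1.91 and -1.60 (SE 0.31). All 3 were called with both ligands, and treated and DMSO libraries did not overlap. Other inhibitors in the list did not all move this way. Pias2 passed the adjusted p higher with both ligands (0.32 and 0.22, SE 0.05), and Socs1 and Ptpn2 passed with neither. Socs2, Pias1 and Pias4 passed lower with both, Pias3 with ET-3 alone and Ptpn11 with NT alone. The list holds 4 receptor genes of the interleukin-6 family, described here after their values were seen, and they did not move together. Il6ra, the chain that binds interleukin-6, had 30 and 13, 41 and 36, and 30 and 41, with 0.92 (SE 0.36, adjusted p = 0.0437) and 0.79 (SE 0.36, adjusted p = 0.0767). The other 3 were lower, with Osmr at 382 and 333, 95 and 155, and 143 and 117, Lifr at 343 and 386, 168 and 187, and 215 and 201, and the shared chain Il6st at 1510 and 1565, 858 and 915, and 1028 and 994. Their changes were -1.55 and -1.46 (SE 0.19) for Osmr, -1.03 and -0.80 (SE 0.09) for Lifr, and -0.79 and -0.60 (SE 0.05) for Il6st, and these 3 passed the adjusted p with both ligands.

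Of 12 tested genes of nucleic acid sensing 4 were higher and 3 lower with ET-3 by the adjusted p, and 5 and 3 after NT. The shares higher and lower over all tested genes were 30.6% and 33.2% with ET-3, and 29.7% and 32.5% after NT. Cgas, the cytosolic DNA sensor, had 61 and 69 under DMSO, 137 and 145 after ET-3 and 154 and 167 after NT, a rise of 1.11 and 1.29 (SE 0.12). Dhx58, an RNA helicase that tunes RNA sensing, had 3 and 6, 14 and 13, and 21 and 9, with 1.45 and 1.49 (SE 0.45, adjusted p = 0.0175 and 0.0162). Of 14 tested partners of antigen presentation 3 were higher and 3 lower with ET-3, and 3 and 7 after NT, beside the same shares. Cd1d1, a class I-like molecule that presents lipids, was higher at 11 and 14, 50 and 46, and 47 and 52, with 1.87 and 1.91 (SE 0.23), and Mr1, which presents metabolites, was lower at 14 and 15, 1 and 2, and 5 and 4, with -2.66 and -1.5 (SE 0.41). Of 27 tested other interferon-induced genes 7 were higher and 5 lower with ET-3, and 10 and 7 after NT, beside the same shares over all tested genes. The median log2 fold change of the 27 was 0.08 and 0.24, and the highest was 2.5 and 2.22. The genes with the largest changes were Irgm2 and Igtp, which encode immunity-related GTPases that act beside the Gbp proteins, and Xaf1, a pro-apoptotic gene. Irgm2 was at 42 and 40, 1 and 1, and 3 and 2 (-4.39 and -3.60, SE 0.39), Igtp at 20 and 16, 1 and 0, and 1 and 1 (-3.74 and -3.24, SE 0.50), and Xaf1 at 31 and 30, 0 and 2, and 2 and 2 (-4.18 and -3.39, SE 0.53). These genes, Cgas, Cd1d1 and Mr1 were called with both ligands, and for Irgm2, Igtp and Xaf1 every treated library was at 3 or below.

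The muscle markers moved in the same libraries. Pax7, the transcription factor of MuSCs, had 857 and 1070 under DMSO, 1754 and 1730 after ET-3 and 1653 and 1599 after NT. Myog, a factor of differentiating myoblasts, had 1157 and 1335 in DMSO and 28 to 38 in the treated libraries. Of the 9 tested markers 3 were higher and 4 lower with ET-3 by the adjusted p, and 3 and 6 with NT. Cdh15 was called lower with both ligands (-1.80 and -1.82, SE 0.07). Vcam1 and Sdc4 passed higher, and Des and Itga7 lower, with both. Myf5 and Myod1 passed lower with NT alone. The part of these marker differences in the levels of the 65 genes was not tested.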

How the data were processed

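RNA-seq of cultured MuSCs was analysed in 6 libraries, grouped by their labels, which speak of triplicates where 2 libraries per group are used here. According to the study's methods, the authors trimmed single-end reads, aligned them to mm10 (GRCm38) with STAR and counted exonic reads per gene with featureCounts, without reads that hit several genes or regions; the submitters' processing notes name Trimmomatic 0.38, STAR 2.7.7a, featureCounts 1.6.5 and DESeq2 1.30.0. The deposited signal values are whole numbers that behave as such counts after the authors multiplied each library by 1 factor and rounded, since in the 3 libraries with factors above 1, 13 to 24 of the whole numbers examined, which no count can give, hold 0 genes. They were therefore not used as counts, and limma on the log2 scale took the place of the count test that had been planned. Labels and methods disagree on the kit and the doses.

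Values were tested as log2(value + 1) with limma 3.58.1 in R 4.3.3 (lmFit, eBayes with trend, all 6 libraries, no block) over 13921 genes with a mean of at least 5, with Benjamini-Hochberg adjustment in each comparison. The genes, lists and rule for naming were chosen with earlier results of these data known. Named were all called genes, the 3 with the highest mean in each role and up to 3 called genes per pathway list; other members are given to complete their role. Some genes are counted but not reported by name here. Exon lengths and gene positions were taken from GENCODE M21, which held 18920 of the 18943 genes, and start windows from RefSeq. Depth and the counting error it gives stand with the data. The fit was tested on simulated data. Same-numbered libraries did not deviate together (correlations of -0.00798, -0.0704 and -0.0217). The 16 alternatives covered filter, pseudocount, scaling, replicate block, voom, fold threshold, groups fitted, averaged treated pairs and each library left out. Python 3.11.15 with pandas 2.3.3 and matplotlib 3.10.9 prepared tables and plots.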

Additional observations from a re-analysis of the deposited data

How the results depend on the processing

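Of the 16 alternatives, dropping the fold threshold raised the calls, to 10 higher and 21 lower members under ET-3 and 11 and 18 under NT, and for the pathway lists to 16 and 24 under ET-3 and 18 and 30 under NT. Counting each treated pair as 1 sample left 2 members called higher under each ligand, and 3 and 2 pathway genes; fewer samples entered that fit. A pseudocount of 5 left 3 pathway genes higher with ET-3, and scaling to library totals gave 10 higher with NT. Leaving out 1 library at a time gave 2 to 6 members and 3 to 5 pathway genes higher with ET-3, both lowest without the second ET-3 library. Between the ligands, 0 members were called at 2-fold in each of the 16. In the limma test as reported 4 were at an unadjusted p under 0.05, beside 2765 of all 13921 tested genes.

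A fit with the replicate block kept 6 higher and 12 lower members under ET-3 and 6 and 10 under NT. These were the same genes as without it, and no member's call changed. Whether same-numbered libraries belong together is not known. The libraries of a ligand differed no more than sampling of reads would give, so these checks cannot decide it. Scaling to library totals moved the median change over the tested genes, on the log2 scale, from -0.01 to 0.08 under ET-3 and to 0.10 under NT.

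Over all alternatives, 1068 fold changes of named members kept their direction and their side of the threshold, 53 lost a call, 5 gained one and 14 turned, none of which had been called. Under scaling to library totals and to the upper quartile, Ifnar2 with NT turned to 0.0911 and 0.0215, and Stat5b with ET-3 to 0.0499 and 0.0022. Leaving out 1 library turned B2m with ET-3 (range -0.0458 to 0.1475), Ifnar2 with NT (-0.0862 to 0.0437), Irf2 with ET-3 (-0.0128 to 0.0726), Isg20 with ET-3 (-0.2075 to 0.2399), Oasl2 with NT (-0.2925 to 1.0294), Stat5b with ET-3 (-0.0986 to 0.0205), Tap1 with ET-3 (-0.6890 to 0.1117) and Tap1 with NT (-0.2760 to 0.5247). The cause of these turns was not tested. Depth limits members under a value of 10, where a few reads set the fold change.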
